A study of Mus musculus with 2 samples.

Results

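The region described here is a stretch of distal mouse chromosome 8, from 122 to 130 Mb in mm9, in which peaks of the transcription factor Srf crowd together with peaks of acetylated histone H3 (H3ac). Its members are all called peaks of either list that start at or after 122 Mb and before 130 Mb: 175 of the 2190 Srf peaks and 280 of the 10486 H3ac peaks of the genome. The block was selected on its number of called Srf peaks in these same data, so its peak counts are a description and carry no test. Chromatin immunoprecipitation and sequencing was done in HL-1 cells, an established line that beats in culture and was derived from mouse atrial cardiomyocytes, harvested at their maximum density. There was 1 library against Srf and 1 against H3ac, with no treatment, so nothing here could be checked on a replicate, and peaks of 1 library are not replicates of each other. The lists give positions only, without height, score or read count, and the depth of both libraries is unknown. All intervals below are 95% intervals of counting error. They treat peaks as independent, although peaks cluster, and are therefore too narrow.

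Srf (serum response factor) is a MADS-box protein that binds the CArG box, a short motif found in front of genes of the cytoskeleton, of the contractile apparatus and of the early response to growth signals. In muscle it acts with partners of the myocardin family, and its best-studied targets include the actin genes. Acetylation of histone H3 neutralises charge on the histone tail and is found at active promoters and enhancers, where broad stretches are typical of active start sites. Distal chromosome 8 carries Acta1, the gene of skeletal muscle alpha-actin and a long-studied Srf target, which lies between Ccsap and Nup133 in the RefSeq table of assembly GRCm38.p6. That table follows another assembly than the peak lists, so no peak was assigned to Acta1 or to any other gene, and no sequence was read under the peaks.

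The block made up 6.25% of the length of chromosome 8 between its first and last peak, and it held 56.6% of that chromosome's Srf peaks and 35% of its H3ac peaks. This came to 21.9 Srf and 35 H3ac peaks per Mb, against 1.12 and 4.34 per Mb over the remaining 119.9 Mb with its 134 Srf and 520 H3ac peaks. H3ac peaks covered 162.6 kb of the block, or 2.03% of its length, and 0.156% of the rest of the chromosome. Srf peaks covered 0.450% and 0.0204%. Both marks were thus crowded here, Srf more so: there were 0.625 Srf peaks per H3ac peak, against 0.258 in the rest. Per kb of H3ac peak the contrast was smaller, with 1.08 Srf peaks in the block and 0.717 in the rest.

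**Figure D1:**
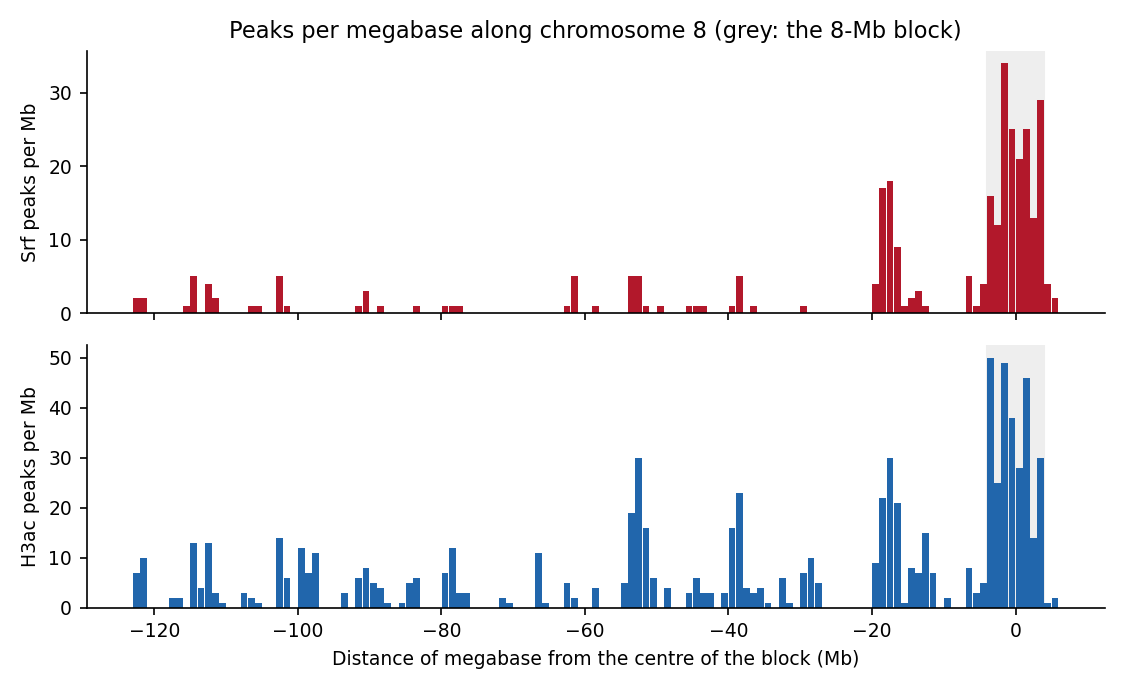
Srf peaks (upper panel) and H3ac peaks (lower panel) in each megabase of chromosome 8, by the distance of the megabase from the centre of the block in Mb; the block is shaded grey. Every shaded megabase holds at least 12 Srf and 14 H3ac peaks, and the only other megabases with 12 or more Srf peaks are 2 in a smaller dense stretch from 107 to 110 Mb.

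The lower edge was a step between neighbouring megabases. The megabase from 121 Mb held 4 Srf and 5 H3ac peaks, none of the latter broad, and the one from 122 Mb held 16 and 50. The last Srf peak below the edge ran from 121970442 to 121970608 and lay 24049 bp from the nearest H3ac peak. The first inside ran from 122152464 to 122152569 and lay 23371 bp from one. At the upper end the last Srf peak inside, from 129587795 to 129588097, lay 155 bp from an H3ac peak. It was followed by 851596 bp without an Srf peak. The first one beyond, from 130439693 to 130439795, lay 443734 bp from any H3ac peak. Of the H3ac list, the last peak inside (129963906 to 129964272) and the first beyond (130883529 to 130883707) were 919257 bp apart. The megabase from 130 Mb held 4 Srf peaks and 1 H3ac peak.

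Inside the block the marks were not in a fixed proportion. The megabase from 122 Mb held 50 H3ac peaks, the most of the 1772 megabases of the genome with a peak of either list, but 16 Srf peaks. From 123 Mb there were 12 Srf and 25 H3ac peaks. The megabase from 124 Mb held 34 Srf peaks, the most of the block, beside 49 H3ac peaks. Those from 125, 126 and 127 Mb held 25, 21 and 25 Srf peaks beside 38, 28 and 46 H3ac peaks. From 128 Mb there were 13 Srf and only 14 H3ac peaks, and from 129 Mb 29 and 30. The number of Srf peaks per H3ac peak therefore ran from 0.32 in the first megabase to 0.929 and 0.967 in the last 2. In numbers of H3ac peaks the megabases from 122, 124 and 127 Mb were the 3 highest of the genome, and the one from 128 Mb ranked 152nd.

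Few megabases of other chromosomes with at least 14 H3ac peaks reached the Srf counts of the block. Such megabases, called H3ac-rich here, numbered 154, and 14 was the lowest H3ac count of the block. They were not matched to the block, since their median was 18.5 H3ac peaks, against 34 in the block. Their median was 3 Srf peaks, and 5 of them reached the block's lowest count of 12. One of the 5, the megabase from 3 Mb on chromosome 11, held 94 Srf peaks, more than any megabase of the block, beside 37 H3ac peaks (2.54 Srf per H3ac peak), and 55.3% of these Srf peaks overlapped H3ac. Together the 154 had 0.220 Srf peaks per H3ac peak and 0.538 per kb of H3ac peak, against 0.625 and 1.08 in the block. Without the first 4 Mb of each chromosome, which takes out that megabase and 1 other, the 152 left had 0.190 and 0.470. On chromosome 8 outside the block 10 megabases had at least 14 H3ac peaks (median 20), with 1 to 18 Srf peaks each. Together they had 0.325 Srf peaks per H3ac peak and 0.888 per kb of H3ac peak. The 3 that make up a smaller dense stretch from 107 to 110 Mb held 17, 18 and 9 Srf peaks, and the other 7 held at most 5 each. All these are counts that the choice of the block used, or that resemble them, and no test was made.

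**Figure D2:**
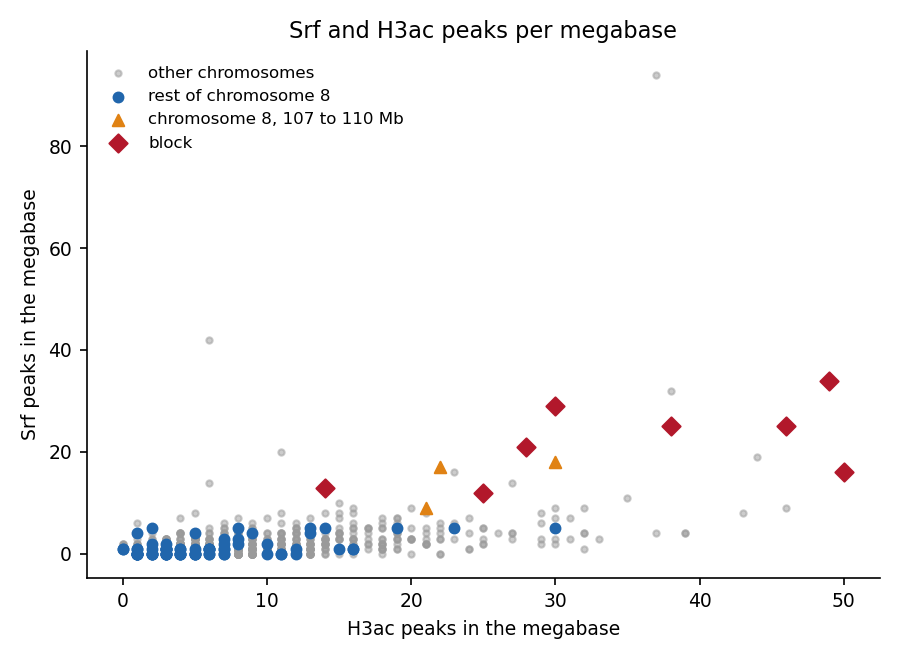
Number of Srf peaks against number of H3ac peaks, 1 point per megabase: the block (diamonds), the rest of chromosome 8 (circles, with the stretch from 107 to 110 Mb as triangles) and the other chromosomes (small grey points). The 8 megabases of the block lie at 12 to 34 Srf peaks, where 5 of the 154 H3ac-rich megabases of other chromosomes reach 12; the highest point, at 94, is on chromosome 11.

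The overlap of the marks was not used to choose the block. Of its 175 Srf peaks, 70 shared at least 1 bp with an H3ac peak, which is 40% (exact Clopper-Pearson interval 32.7% to 47.7%), where 27.7% of all Srf peaks of the genome did. In the rest of chromosome 8 the share was 28.4% (38 of 134, interval 20.9% to 36.8%). The block was 11.6 percentage points higher (Newcombe interval 0.918 to 21.8 points). The difference was 18.9 points (7.09 to 29.2) when the stretch from 107 to 110 Mb was left out of the rest. Against the 154 H3ac-rich megabases of the other chromosomes it was 7.71 points, with an interval that includes 0 (-0.108 to 15.8), and without the first 4 Mb of each chromosome 11.3 points (3.37 to 19.5). Against the 10 of chromosome 8 it was 10.1 points, also with an interval that includes 0 (-3.56 to 22.3). Against the whole rest of the chromosome the interval included 0 too when the megabase from 125 Mb (11.0 points, -0.0731 to 21.6) or from 129 Mb (9.998 points, -1.07 to 20.7) was left out of the block. H3ac cover is 2.03% of the block's length and 0.156% of the rest, and its part in the higher overlap was not tested.

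Srf peaks on broad H3ac peaks, here those of 1000 bp or more, were more frequent than in the rest of the chromosome. In the block 27 Srf peaks (15.4%, 10.4% to 21.6%) overlapped a broad H3ac peak, against 4 (2.99%, 0.819% to 7.47%) in the rest, a difference of 12.4 points (6.05 to 18.8). The whole Srf list, the block included, had 164 of 2190 (7.49%), so the rest of chromosome 8 lay below the genome and the block above it. Against the H3ac-rich megabases of chromosome 8 the difference was 11.0 points (1.82 to 17.7). Against those of the other chromosomes it was 4.05 points, with an interval that includes 0 (-1.22 to 10.5), and without the first 4 Mb of each chromosome 7.42 points (2.20 to 13.8). Srf peaks that met narrower H3ac peaks only were 43 (24.6%) in the block, 34 (25.4%) in the rest and 20.2% of the whole list. The difference from the rest was -0.802 points (-10.7 to 8.74). It was 4.57 points (-6.48 to 14.4) with the stretch from 107 to 110 Mb left out, and 3.66 points (-2.93 to 11.1) against the H3ac-rich megabases of the other chromosomes. Of the 27 on broad peaks, 24 lay wholly inside the H3ac peak. Of the 43 on narrow ones, 5 lay wholly inside, 7 enclosed the H3ac peak and 31 met it with 1 end.

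The 105 Srf peaks of the block without overlap had a median gap to H3ac of 1229 bp (568 to 3783 bp). In the rest of the chromosome this median was 3537 bp (899 to 14739 bp). Of all 175, 40 (22.9%, 16.9% to 29.8%) ended within 500 bp of an H3ac peak without overlap. This share was 24.6% in the rest of the chromosome and 28.4% in the whole Srf list. Together with the overlapping ones, 110 (62.9%, 55.2% to 70.0%) lay within 500 bp, where 56.1% of the whole Srf list did. The rest of the chromosome had 53.0% (44.2% to 61.7%), and the difference of 9.87 points had an interval that includes 0 (-1.19 to 20.7). A further 38 Srf peaks (21.7%) lay farther out but within 10000 bp, and 27 (15.4%) lay between 10000 and 100000 bp away. None of the 175 lay farther than 100000 bp, which allows a share of up to 1.71%, while 10 of 134 (7.46%, 3.64% to 13.3%) did so in the rest. Neighbouring H3ac peaks had a median spacing of 12592 bp in the block and 43829 bp in the rest, and the part of this in the distances was not tested. The gap had a median of 155 bp (46 to 312 bp, read from binomial ranks) in the block and 257.5 bp (121 to 1242 bp) in the rest, and these intervals overlap.

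**Figure D3:**
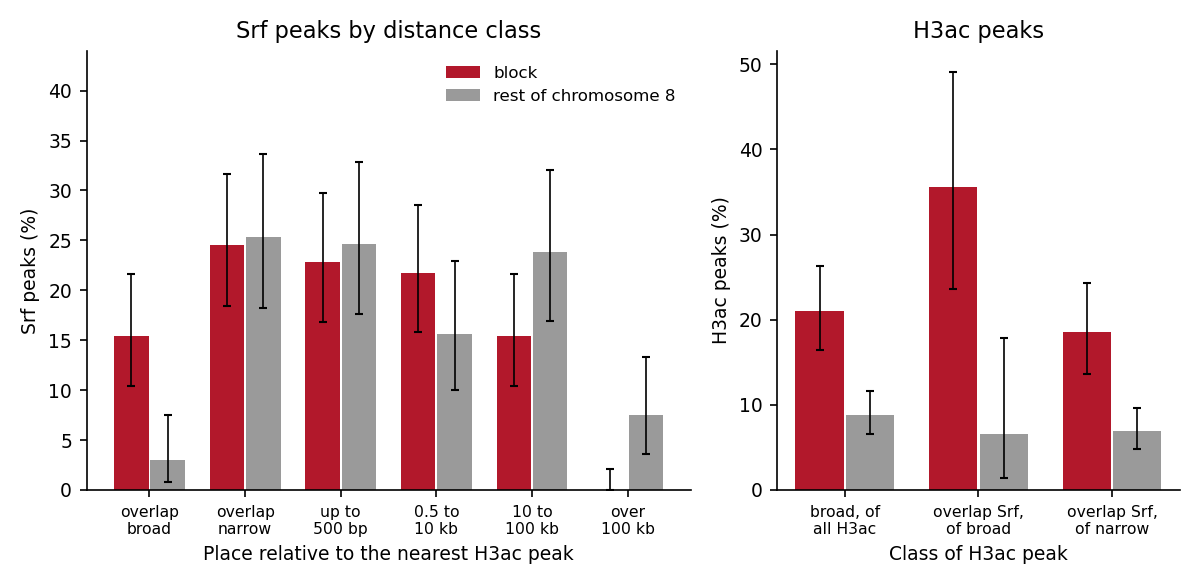
Left, percent of Srf peaks by place relative to H3ac peaks (overlap with a broad peak of 1000 bp or more, overlap with narrower peaks only, then classes of gap to the nearest H3ac peak); right, percent of H3ac peaks that are broad, and percent of broad and of narrower H3ac peaks that overlap Srf. Bars compare the block with the rest of chromosome 8 and error bars are exact 95% intervals; the block stands higher in overlap with broad peaks (15.4% against 2.99%), and overlap with narrower ones is 24.6% against 25.4%.

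Seen from the acetylated side, 62 of the 280 H3ac peaks (22.1%, 17.4% to 27.5%) overlapped an Srf peak, against 5.25% of the whole H3ac list. The rest of chromosome 8 had 36 of 520 (6.92%, 4.90% to 9.46%). This share rises with the number of Srf peaks, which chose the block. An Srf peak lay on 21 of the 59 broad H3ac peaks (35.6%, 23.6% to 49.1%) and on 41 of the 221 narrower ones (18.6%, 13.7% to 24.3%). In the rest these shares were 3 of 46 (6.52%, 1.37% to 17.9%) and 33 of 474 (6.96%, 4.84% to 9.64%). In the whole H3ac list they were 123 of 1145 (10.7%) and 428 of 9341 (4.58%). The widest class, 2000 bp or more, had Srf at 10 of its 22 peaks in the block and at 1 of 10 in the rest. In the whole list it had Srf at 35 of 210 (16.7%). These 22 peaks held 33.0% of the acetylated length of the block, and the part of peak width in these shares was not tested. The median H3ac peak of the block lay 5508 bp (3371 to 7841 bp) from the nearest Srf peak, and that of the rest 108024 bp (90657 to 133995 bp). This distance, too, depends on the number of Srf peaks, which chose the block.

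H3ac peaks of the block were broader, a property that the choice did not use. Their median width was 215.5 bp (194 to 248 bp), against 184 bp (175 to 193 bp) in the rest of the chromosome. Broad peaks made up 59 of 280, or 21.1% (16.4% to 26.3%), where 10.9% of all H3ac peaks of the genome were broad. The rest of chromosome 8 had 46 of 520 (8.85%, 6.55% to 11.6%), a difference of 12.2 points (7.06 to 17.8). Against the H3ac-rich megabases of chromosome 8 the difference was 10.9 points (4.32 to 17.1), and against those of the other chromosomes 9.67 points (5.16 to 14.9). Peaks of 2000 bp or more held 33.0% of the acetylated length of the block and 11.9% of that of the rest. All 8 megabases held broad peaks, from 3 in the megabase from 128 Mb to 11 in those from 122 and 124 Mb. Peaks under 100 bp were 14.6% in the block and 11.5% in the rest, with a difference of 3.10 points (-1.65 to 8.34).

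No such shift in median width was detectable among Srf peaks. Their median was 169 bp (159 to 188 bp) in the block and 175 bp (161 to 195 bp) in the rest. The widest was 755 bp in the block, 407 bp in the rest and 3812 bp in the whole Srf list. Peaks of 233 bp or more, a class bounded by the upper quartile of the Srf list, were 30.3% and 21.6%, and the interval of the difference, 8.64 points, included 0 (-1.33 to 18.1). At these wide Srf peaks overlap with H3ac was 45.3% (24 of 53) in the block and 44.8% (13 of 29) in the rest. At narrower ones it was 37.7% (46 of 122) and 23.8% (25 of 105), a difference of 13.9 points (1.80 to 25.3). Whether the difference depends on Srf width was not tested.

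Within the block, the overlap share of the megabases ran from 25% to 50%, on 12 to 34 Srf peaks each. It was lowest in the megabase from 122 Mb, at 4 of 16 Srf peaks (25%, 7.27% to 52.4%), where H3ac peaks were most numerous. It was highest in the megabases from 123 Mb, at 6 of 12 (50%, 21.1% to 78.9%), and from 129 Mb, at 14 of 29 (48.3%, 29.4% to 67.5%). The megabase from 124 Mb, with the most Srf peaks, had 13 of 34 (38.2%, 22.2% to 56.4%). The other 4 lay between 30.8% and 44%. All 8 intervals overlap each other, but intervals this wide cannot show that the shares were alike, and no test was made.

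In windows of 100 kb, most windows held both marks, and most of those without Srf held neither. Of the 80 windows, 57 held both marks, 12 held neither, 8 held H3ac only and 3 held Srf only. Windows with an Srf peak had a median of 3.5 H3ac peaks, and the 20 without had a median of 0. Across windows the Spearman rho of the counts was 0.702 (80 windows of the same 2 libraries, given as a description). The longest gaps between neighbouring Srf peaks of the block ran from 128474515 to 128946452 (471937 bp) and from 123637476 to 124056924 (419448 bp), and neither held an H3ac peak. The next, from 123320460 to 123632092, was 311632 bp long and held 6 H3ac peaks, none of them broad.

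**Figure D4:**
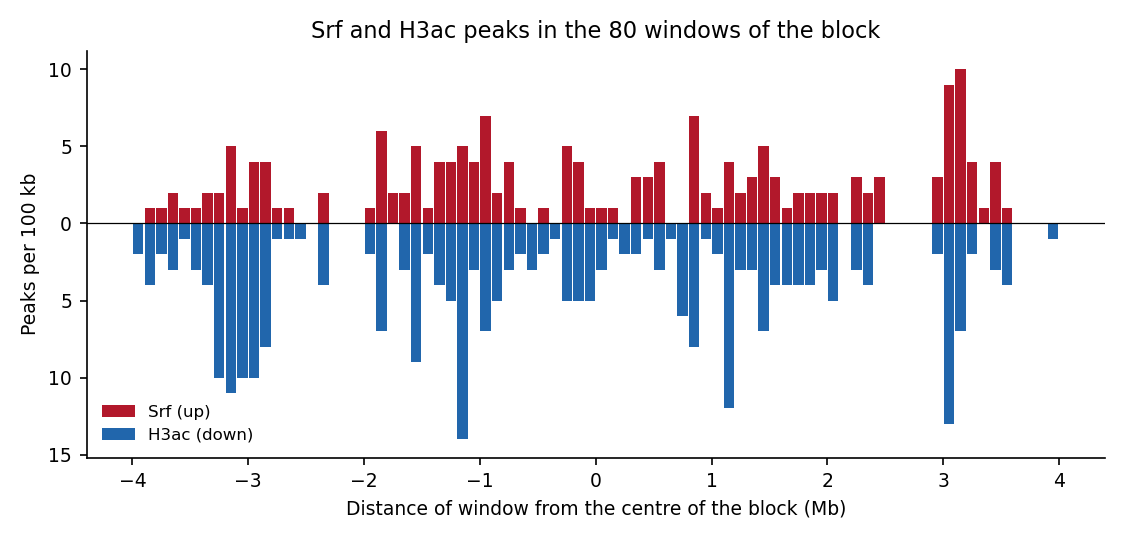
Srf peaks (upward bars) and H3ac peaks (downward bars) in the 80 windows of 100 kb of the block, by distance of the window from the centre of the block in Mb. The tallest Srf bars, 9 and 10 peaks, are neighbours near 3 Mb, and a gap on each side of the centre is empty of both marks.

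The densest windows differed in how much acetylated sequence they held. The window from 129.1 to 129.2 Mb held 10 Srf peaks, 4 of them overlapping H3ac, and 7 H3ac peaks that summed to 1.12 kb. Its neighbour from 129 to 129.1 Mb held 9 Srf peaks, 5 of them overlapping, beside 13 H3ac peaks of 8.31 kb in all. Next came a pair of windows with 7 Srf peaks each. The one from 125 to 125.1 Mb had 7 H3ac peaks of 1.44 kb, with 2 of the Srf peaks overlapping, and the one from 126.8 to 126.9 Mb had 8 H3ac peaks of 7.77 kb, with 3 overlapping. High Srf counts thus occurred in windows with much and with little acetylated sequence, which is not always what lay under the Srf peaks. From 129 to 129.1 Mb, the H3ac peaks that met Srf were 279, 769, 216, 1519 and 146 bp wide. Those of 1201 and 2608 bp lay 2881 and 3493 bp from the nearest Srf peak.

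At closer range, many Srf peaks came in groups. When Srf peaks with gaps of at most 10000 bp were joined, the block had 32 groups of at least 2, of which 16 were pairs, and 88 single peaks. These groups held 87 Srf peaks, 49.7% (42.1% to 57.4%), against 26.9% (19.6% to 35.2%) in the rest of the chromosome. Crowding raises this share by itself and was what chose the block. The median spacing of neighbours was 26286 bp, but 32 of 174 spacings were 1000 bp or less.

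The largest group held 7 Srf peaks in 11620 bp, from 129107959 to 129119579. They included a peak of 703 bp (129118239 to 129118942) that lay 1041 bp from the nearest H3ac peak. Of the 7, 3 overlapped H3ac, and the 3 H3ac peaks in the group were only 193, 131 and 141 bp wide. The next largest were 3 groups of 4 Srf peaks. In that from 126805960 to 126815471, 3 of the 4 lay wholly inside 2 broad H3ac peaks, one of 2009 bp that began at 126804598 and one of 2220 bp that began at 126814151. That from 124797170 to 124807064 had 3 Srf peaks on broad H3ac peaks of 2012 and 1510 bp. In that from 127176835 to 127187140 all 4 overlapped H3ac.

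Among H3ac peaks joined over gaps of at most 1000 bp, the block had 264 domains, and 62 (23.5%, 18.5% to 29.1%) held an Srf peak. The rest of the chromosome had 37 of 500 (7.4%, 5.26% to 10.1%). Like the share of H3ac peaks with Srf, this share rises with the number of Srf peaks, which chose the block. Domains were counted on chromosome 8 only. The domain with the most Srf peaks ran from 127174181 to 127180742 (6561 bp) and was made of 4 H3ac peaks. All of its 3 Srf peaks, at 127176835 to 127176992, 127177597 to 127177836 and 127177871 to 127177974, lay inside its broadest peak. That peak, from 127176247 to 127179706 (3459 bp), was also the widest H3ac peak of the block. Another 8 domains held 2 Srf peaks each. Of these, 5 were a single H3ac peak, 3 of them broad (1769, 2012 and 2220 bp) and the others 193 and 972 bp wide, and 3 were made of 2 H3ac peaks.

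The other 4 of the 5 widest H3ac peaks carried 1 Srf peak each. They ran from 125199974 to 125203175 (3201 bp), from 127710112 to 127713232 (3120 bp), from 125777287 to 125780017 (2730 bp) and from 125564692 to 125567350 (2658 bp). So all 5 of the widest acetylated peaks of the block held Srf, and the part of their width in this was not tested.

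The 10 widest Srf peaks of the block were between 405 and 755 bp wide, and 7 overlapped H3ac. The widest, from 127711809 to 127712564 (755 bp), lay wholly inside the H3ac peak of 3120 bp named above. A peak from 124805232 to 124805786 (554 bp) likewise lay inside one of 2012 bp. The peak from 126001694 to 126002127 (433 bp) enclosed an H3ac peak of 320 bp, and that from 125966759 to 125967279 (520 bp) enclosed one of 189 bp. The peak from 124663498 to 124664080 (582 bp) enclosed one of only 53 bp. A peak of 521 bp (124473775 to 124474296) shared 154 bp with its H3ac peak, and one of 441 bp (127245781 to 127246222) shared 62 bp. Without overlap were the peak of 703 bp named above, one from 126840281 to 126840716 (435 bp), whose nearest H3ac peak was 35 bp away, and one from 129190273 to 129190678 (405 bp), 191 bp away. Wide Srf peaks thus stood inside broad acetylated peaks, around small ones and just beside others.

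At every distance read around Srf midpoints, H3ac cover was higher in the block than in the rest. At the midpoint itself 26.3% of the 175 Srf peaks (19.9% to 33.5%) lay under an H3ac peak, against 12.7% of the 134 in the rest (7.57% to 19.5%). At 1000 bp on either side in genome order the block had 13.1% (8.52% to 19.1%) and 10.3% (6.21% to 15.8%), and the rest 0.746% (0.0189% to 4.09%) and 2.24% (0.464% to 6.40%). Averaged over 2500 to 3000 bp, cover was 4.75% and 0.678%. H3ac peaks covered 2.03% of the whole length of the block and 0.156% of that of the rest. The part of this in the profile was not tested. In the block cover at 200 to 300 bp was 0.857 times that within 50 bp, and in the rest 1.19 times. This contrast was not tested.

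**Figure D5:**
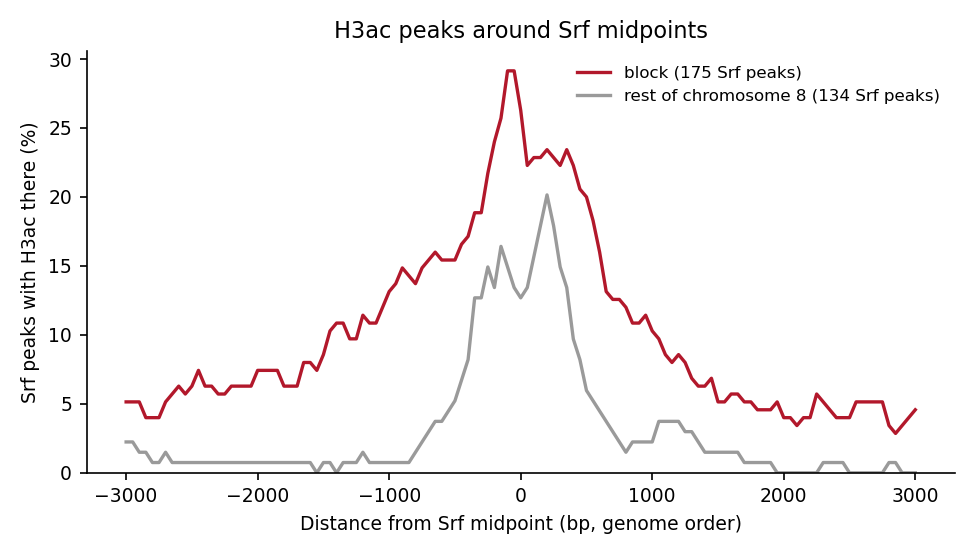
Percent of Srf peaks that have an H3ac peak at each distance from the Srf midpoint, from -3000 to 3000 bp in genome order, for the 175 Srf peaks of the block and the 134 of the rest of chromosome 8. The curve of the block is highest near the midpoint, at 29.1%, and remains above that of the rest at every distance read.

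The smaller dense stretch of the chromosome, from 107 to 110 Mb, was the closest counterpart, with 44 Srf and 73 H3ac peaks (0.603 Srf per H3ac peak). Its overlap was 43.2% (28.3% to 59.0%), and the block differed from it by -3.18 points (-19.4 to 12.2). Of its Srf peaks 72.7% (57.2% to 85.0%) lay within 500 bp of H3ac, and the median gap was 81.5 bp (0 to 144 bp). Of its H3ac peaks 23.3% (14.2% to 34.6%) overlapped Srf. In these traits the block was not set apart from this stretch. Srf peaks on broad H3ac peaks were 3 of 44 there (6.82%), 8.61 points fewer than in the block (interval of the difference -3.69 to 16.2). Broad H3ac peaks were 9 of 73 (12.3%), and the difference of 8.74 points also had an interval that includes 0 (-1.69 to 16.4). At these numbers neither difference between the stretches was detectable.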

How the data were processed

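Each deposited list holds, per the file headers, a peak's name, its chromosome and its first and last position; another file describes these columns. Positions refer to mm9, a build named in the submitters' processing notes. Which aligner, peak caller, input control and filters were used is not given in the sources used here. Members and measures were chosen with earlier results of these data known. An overlap was at least 1 bp in common, ends included, and a gap was taken edge to edge. Intervals (95%) are exact Clopper-Pearson for shares, Newcombe for differences and by binomial ranks for medians. No test was made, with 1 library per antibody. Items named were the 10 widest Srf and 5 widest H3ac peaks, 3 each of the densest windows, largest groups, richest domains and longest gaps (ties to the lower start, with tied items added to the text), and the peaks at the edges. The gene table follows GRCm38.p6, so no coordinate was matched to a gene. Steps were tested on simulated lists. Python 3.11.15 was used, with pandas 2.3.3, scipy 1.17.1, numpy 2.4.6 and, for figures, matplotlib 3.10.9.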

Additional observations from a re-analysis of the deposited data

How the results depend on the processing

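Of 178 alternative values, 162 stayed within the interval of the reported value (for the number of groups, within 1.5 times it) and 16 moved. No difference whose interval excluded 0 changed direction. Many alternatives omit a single megabase or move the block by 0.5 Mb. These reuse most of the same peaks and could hardly leave the interval, so the count is no measure of robustness. A value that stayed can also have an interval of its own that includes 0. The other references, the block moved by 0.5 Mb, the omission of each megabase and the uncounted touching ends were chosen after seeing the data. Overlap of at least 50% of the Srf peak, or of at least 100 bp, gave a share of 24.6% for Srf peaks and 13.2% for H3ac peaks, by construction. Srf peaks at or above the list's median width gave 71.25% within 500 bp, 12.5% of H3ac peaks and 13.3% of domains with Srf, and 0.286 Srf peaks per H3ac peak. With the wider H3ac peaks only (from the list's median up), Srf overlap was 26.9%, 33.1% of Srf peaks lay within 500 bp, the median gap grew to 6956 bp and there were 1.09 Srf peaks per H3ac peak. Between midpoints the median distance was 454.5 bp. Counted from 500 or 2000 bp, broad H3ac peaks were 28.9% or 7.86%. Against the H3ac-rich megabases of other chromosomes, their first 4 Mb included, the difference in overlap with broad H3ac peaks was 4.05 points, with an interval that includes 0. Without each megabase in turn, the Srf overlap share ran from 38.4% to 41.5% and its difference from the rest from 9.998 points to 13.2 points, with an interval above 0 in 6 of 8 cases, the exceptions being the megabases from 125 and 129 Mb; the difference in broad H3ac peaks ran from 11.2 to 13.2 points and that in overlap with them from 11.0 to 14.1 points, with intervals above 0 in all 8. No paired analysis was possible because each antibody has 1 library. How far read depth limits the lists cannot be read from them.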

Other observations

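The shortest H3ac peaks, of 38 or 39 bp, numbered 12 in the block (4.29%, exact interval 2.23% to 7.37%) and 13 in the rest of chromosome 8 (2.5%, 1.34% to 4.24%), and the difference of 1.79 points has an interval that includes 0 (-0.723 to 5.01). Of the H3ac domains of the block made of more than 1 peak, 8 of 14 held an Srf peak, and of those in the rest of the chromosome 2 of 19 did. These shares too rise with the number of Srf peaks, which chose the block. In 13 of the 80 windows of 100 kb Srf peaks outnumbered H3ac peaks. The H3ac-rich megabases of chromosome 8 outside both dense stretches held 23 Srf peaks, of which 1 overlapped H3ac (4.35%, 0.110% to 21.9%).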
